A study of Mus musculus with 24 samples.

Results

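Hippocampal RNA of mice that received electroconvulsive therapy (ECT) after chronic stress while their microglia were pharmacologically depleted was compared with that of untreated, nonstressed mice. The comparison took the libraries whose titles give the PLX diet, chronic unpredictable stress (CUS) and ECT, of which there were 4, and the libraries titled as controls, also 4, out of 24 in the series. Expression was described across all genes: 15225 of the 23240 genes in the table passed a filter on low values (a normalized count of at least 10 in at least 4 libraries) and were tested. All animals were male wild-type C57BL/6 mice, 4 to 8 months old. The PLX ECT mice ate a diet with PLX5562, which the labels describe as an inhibitor of the CSF1 receptor kinase, for 3 weeks before a CUS schedule of 5 weeks. They then had 3 ECT sessions per week for 2.5 weeks, each a single shock through ear clips under light isoflurane. The nonstressed mice ate the same food without the compound and had no stress and no treatment. Stress, diet, anaesthesia and shock therefore all differed between the 2 groups and cannot be told apart in this contrast. The other libraries came from stressed mice: 5 with the PLX diet and sham treatment (PLX sham), 6 with the control diet and ECT, and 5 with the control diet and sham treatment. Whether different libraries stem from different mice is not stated in the labels, and p-values therefore measure the spread between libraries, which may in part be technical.

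Microglia are the resident macrophages of the brain. They depend on signalling through the CSF1 receptor, which binds the ligands CSF1 and IL-34, so that inhibitors of its kinase deplete them. The transcription factor PU.1, encoded by Spi1, sets up their gene programme. Electroconvulsive therapy induces a generalised seizure and is used against severe depression, and in rodents it is known to raise activity-regulated genes and hippocampal neurogenesis.

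The libraries of these 2 groups had 15.66 M to 20.12 M gene-assigned reads each, and replicates of a group correlated at 0.9849 to 0.9935 across genes on the log2 scale. Markers of hippocampal subfields were high in both groups: C1ql2 of dentate granule cells lay between 2300 and 3530 normalized counts in PLX ECT libraries and between 1948 and 2707 in nonstressed libraries, and the CA1 marker Wfs1 between 2445 and 3410 and between 2904 and 3492. RNA of tissue next to the hippocampus was also present. The summed level of 16 choroid plexus genes was 76150, 7706, 7473 and 7532 normalized counts in PLX ECT libraries 12 to 15, against 117700, 53280, 29930 and 23450 in nonstressed libraries 22 to 25. Library 12 thus lay within the nonstressed range while the other 3 PLX ECT libraries lay under it. None of these 16 genes was called, all 16 had negative log2 differences (median -1.74), and the 14 thalamus and habenula genes were likewise all negative with none called (median -0.66). The choroid plexus median was -2.59 without library 12, -0.94 under edgeR and -0.91 under DESeq2, and the thalamus median lay between -1 and -0.30 when 1 nonstressed library was left out. In a fit with both list means as covariates, 228 of the 269 lower and 7 of the 18 higher genes described next were still called.

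Genes were called at a Benjamini-Hochberg adjusted p below 0.05 in limma, fitted to log2(normalized count + 1) over all 24 libraries, and every log2 difference below is PLX ECT minus nonstressed unless another contrast is named. In PLX ECT libraries 269 genes were lower (1.77% of those tested) and 18 were higher (0.118%), while 1591 genes (10.4%) had an unadjusted p below 0.05. The falls were large: 183 of the 269 exceeded 2-fold and the median log2 difference was -1.42. The rises were small, with a median of 0.30, and only Oacyl exceeded 2-fold. Over all tested genes the median was 0.002. The 4 PLX ECT values all lay below the 4 nonstressed values for 263 of the 269 lower genes, against 3.72% of all tested genes. They all lay above for the 18 higher genes, against 2.27%. The same libraries gave the calls, so this separation largely follows from the calls and adds no support to them. Of the 269 lower genes, 168 were called in each of 32 alternative analyses, whereas 2 of the 18 higher genes, Oacyl and C4b, were.

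**Figure D1:**
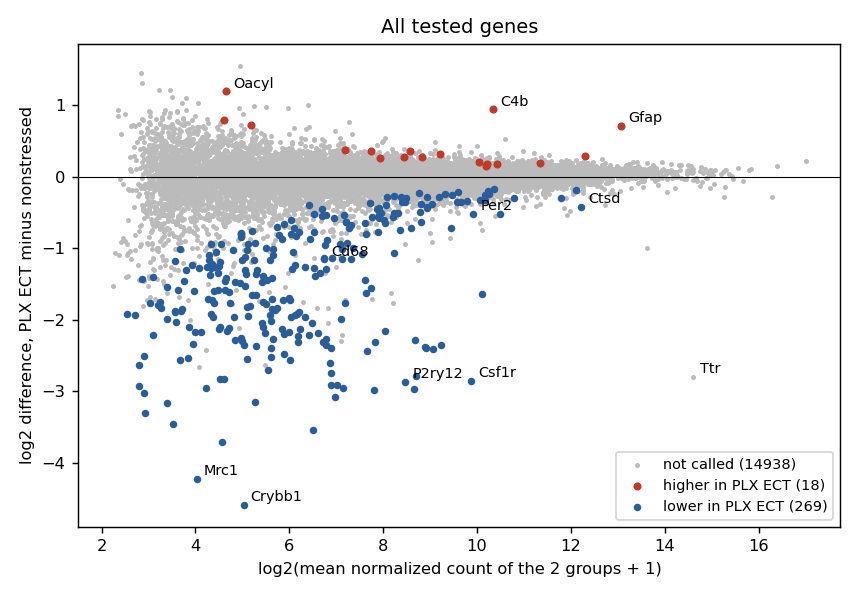
Each point is 1 of the 15225 tested genes, placed by its mean level over the PLX ECT and nonstressed groups (x axis, log2 of the mean normalized count + 1) and its log2 difference, PLX ECT minus nonstressed (y axis). The 269 lower genes (blue) reach -4.59, while the 18 higher genes (red) stay between 0.16 and 1.19. Ttr, a choroid plexus gene, has a large difference that was not called.

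Microglial genes fell together. Of 34 genes that mark microglia, all of which were tested, 33 were lower in PLX ECT libraries and 0 were higher, with a median log2 difference of -2.40. Csf1r, the receptor that the diet targets, had 308, 209, 188 and 216 normalized counts in PLX ECT libraries, against 1566, 1467, 1914 and 1629 in nonstressed libraries. That left 14.0% of the nonstressed mean (log2 difference -2.85 ± 0.17 SE, adjusted p = 2.68e-10). The purinergic receptor gene P2ry12, which serves process movement towards ATP, had 103, 101, 75.3 and 63.9 counts in PLX ECT libraries, against 633, 569, 749 and 546 in nonstressed libraries, or 13.7% (-2.87 ± 0.15, adjusted p = 6.86e-12). Tmem119, a membrane protein used to tell microglia from other macrophages, had 92.3, 78.2, 19.8 and 36.5 counts in PLX ECT libraries, against 384, 372, 463 and 342. On GRCm38.p6, P2ry12 lies at chr3:59216271-59262985, within Med12l on the other strand, and Csf1r shares bases with Hmgxb3 on the other strand. No strand setting is stated for the counting, and reads of such pairs cannot be told apart. The groups did not overlap for any of the 33 called genes, which adds no support because the same libraries gave the calls. Tmem119 separated PLX ECT libraries 12 and 13 from libraries 14 and 15, and so did Cx3cr1, the fractalkine receptor gene, with 172, 127, 68.3 and 71.4 counts in PLX ECT libraries, against 692, 679, 919 and 589 in nonstressed libraries. P2ry12 did so too, whereas Csf1r, with 209 counts in library 13 and 216 in library 15, did not. Neither did Gpr34, given below. Libraries 12 and 13 carry the title letter G and libraries 14 and 15 the letter H. The labels do not give the meaning of these letters, and the cause of the split was not tested. In this bulk tissue, fewer microglia and less RNA per microglial cell cannot be told apart.

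**Figure D2:**
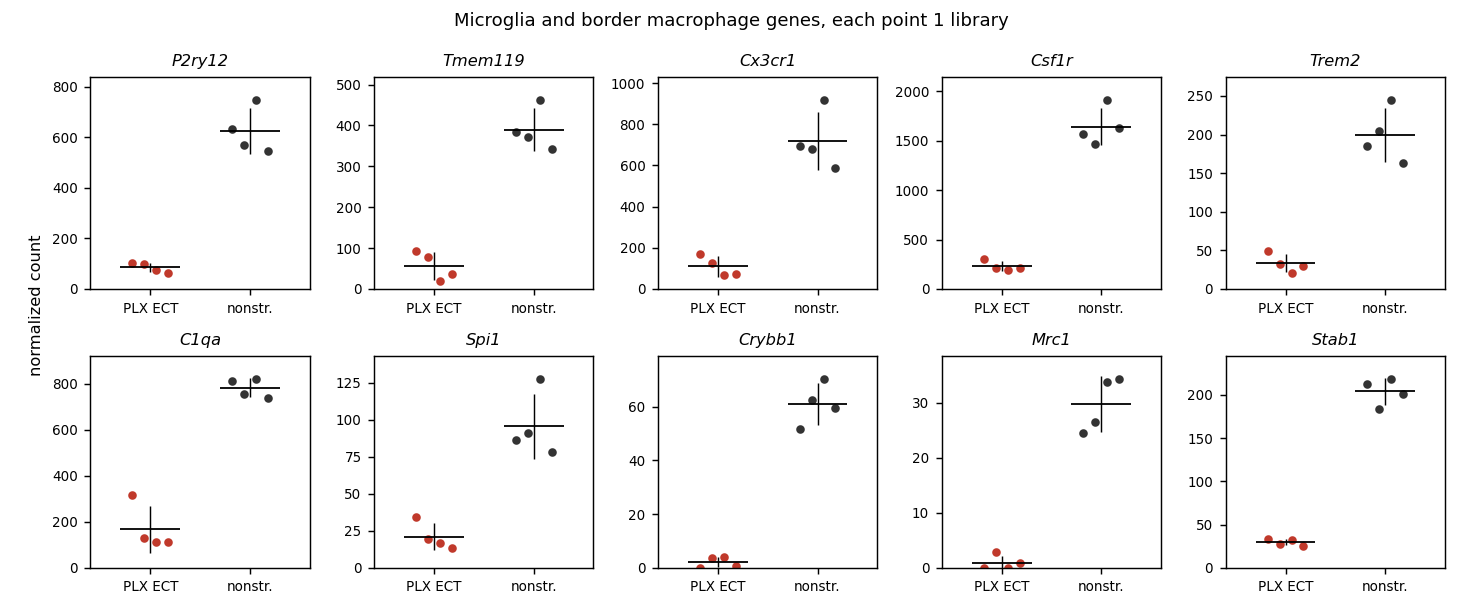
Normalized counts (y axes, linear from 0) of 8 genes of microglia (P2ry12 to Crybb1) and 2 of border macrophages (Mrc1, Stab1) in the 4 PLX ECT libraries (red, left) and the 4 nonstressed libraries (black, right). Points are libraries, horizontal lines group means and vertical lines 1 SD, and in none of the 10 panels do the groups overlap.

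The depth of the fall differed between microglial genes. Over the 33 called genes the PLX ECT mean was between 3.49% and 64.8% of the nonstressed mean (median 20.2%). Crybb1, a beta-crystallin gene expressed by mature microglia, was the lowest, with 0, 3.73, 3.96 and 0.83 counts in PLX ECT libraries, against 51.8, 62.3, 70.4 and 59.4 in nonstressed libraries. These were 9 reads over the 4 PLX ECT libraries and 258 over the nonstressed ones, so the 3.49% has a 95% counting interval of 1.57% to 6.68%, which covers counting error only. All 4 PLX ECT values were below the filter value of 10, so Crybb1 passed the filter only through other groups. Its fall therefore adds no support to the count of 33. Gpr34, a lysophosphatidylserine receptor gene, kept 8.53% (14.5, 21.4, 5.94 and 14.9 counts against 164, 121, 227 and 154). Cd68, of the macrophage lysosome, kept 45.0%, and Sall1, a transcription factor that among brain macrophages marks microglia and is also made by other neural cells, kept 64.8%. Gpr84, a medium-chain fatty acid receptor gene, was the 1 uncalled member: it had 35.3 counts in PLX ECT library 12 and 6.52, 0 and 0.83 in the other 3, against 17.6 to 31.9 in nonstressed libraries (adjusted p = 0.0823, or 6.87e-05 without library 12). Library 12 also had the highest summed level of the 34 genes among PLX ECT libraries, 4354 counts against 2828, 2501 and 2485 in libraries 13 to 15, while nonstressed libraries held 13960, 13090, 15460 and 12900.

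Several of the lower genes have promoters in the RefSeq promoter table used here (GRCm38.p6, 250 bases before to 50 after a gene's start) and 4 are shown because their adjusted p-values were among the smallest of the lower genes. Gfap, a higher gene chosen by name, is shown beside them. Capitals mark 2 motifs on either strand: GAGGAA, the PU box that PU.1 is known to bind, and AGGAAGT, a core of the same family of factors that can overlap the PU box. The Gfap window holds both motifs, as does that of Fcrls, while Stab1, P2ry12 and Csf3r hold 1 each, so Gfap is no contrast in this respect. Stab1 lies at chr14:31168592-31168891 on the minus strand, P2ry12 at chr3:59262936-59263235 (minus), Fcrls at chr3:87263475-87263774 (minus), Csf3r at chr4:126024409-126024708 (plus) and Gfap at chr11:102897151-102897450 (minus). Each is written 5′ to 3′ along its gene's strand. By the gene coordinates used here, the Csf3r window lies wholly inside the gene, which begins at 126023441. Most of the Fcrls window also lies inside its gene, which begins at 87263765 on the minus strand.
Stab1: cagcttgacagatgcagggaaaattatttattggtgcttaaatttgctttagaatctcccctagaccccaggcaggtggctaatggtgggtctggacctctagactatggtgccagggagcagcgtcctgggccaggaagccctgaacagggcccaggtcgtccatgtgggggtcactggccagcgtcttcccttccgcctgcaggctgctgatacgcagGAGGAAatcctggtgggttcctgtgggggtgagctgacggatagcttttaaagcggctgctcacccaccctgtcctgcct
P2ry12: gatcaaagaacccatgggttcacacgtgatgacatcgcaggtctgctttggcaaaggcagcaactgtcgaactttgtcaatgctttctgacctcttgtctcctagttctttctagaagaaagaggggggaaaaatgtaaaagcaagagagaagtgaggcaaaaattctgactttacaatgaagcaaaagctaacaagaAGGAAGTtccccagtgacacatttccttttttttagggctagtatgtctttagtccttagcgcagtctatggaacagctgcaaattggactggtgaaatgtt
Fcrls: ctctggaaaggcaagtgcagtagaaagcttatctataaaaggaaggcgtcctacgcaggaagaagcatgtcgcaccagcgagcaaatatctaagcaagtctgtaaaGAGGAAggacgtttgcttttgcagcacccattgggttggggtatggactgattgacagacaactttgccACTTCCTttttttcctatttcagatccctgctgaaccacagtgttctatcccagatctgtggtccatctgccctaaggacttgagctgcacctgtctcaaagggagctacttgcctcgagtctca
Csf3r: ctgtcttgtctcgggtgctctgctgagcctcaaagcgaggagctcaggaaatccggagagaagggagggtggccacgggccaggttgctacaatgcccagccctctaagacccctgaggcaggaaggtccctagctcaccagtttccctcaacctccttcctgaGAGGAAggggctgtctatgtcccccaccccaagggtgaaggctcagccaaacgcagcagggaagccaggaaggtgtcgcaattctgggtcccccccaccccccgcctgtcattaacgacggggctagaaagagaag
Gfap: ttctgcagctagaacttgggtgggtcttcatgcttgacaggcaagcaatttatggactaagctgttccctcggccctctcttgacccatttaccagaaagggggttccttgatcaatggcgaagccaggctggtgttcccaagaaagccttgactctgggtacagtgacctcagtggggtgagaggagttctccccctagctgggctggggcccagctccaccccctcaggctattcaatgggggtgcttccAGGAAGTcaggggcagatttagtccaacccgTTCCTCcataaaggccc
Of the tested genes, 11517 matched the table by symbol with 14714 promoters, and 207 of the 269 lower genes matched with 279. GAGGAA was present in 47.7% of the promoters of lower genes, against 26.6% of all promoters of tested genes, and AGGAAGT in 24.4% against 8.34%. At least 1 of the motifs was present in 55.9% against 30.7%. The 11 promoters of the higher genes held at least 1 of them in 45.5% of cases. These are counts of letters in a window, not of binding sites.

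Of the lower genes shown, Stab1, a scavenger receptor gene of perivascular and meningeal macrophages, had 33.2, 27.9, 31.7 and 25.7 counts in PLX ECT libraries, against 213, 183, 219 and 201 in nonstressed libraries, and the smallest adjusted p of the comparison (-2.74 ± 0.12, adjusted p = 2.87e-13). Fcrls, an Fc receptor-like gene of microglia, had 36.3, 34.5, 32.7 and 23.2 counts in PLX ECT libraries, against 251, 248, 282 and 219. Csf3r, the granulocyte colony-stimulating factor receptor, had 41.5, 28.9, 35.6 and 30.7 counts in PLX ECT libraries, against 172, 160, 165 and 137, leaving 21.6%. The ligands of the diet's target were not called: Csf1 had 803, 805, 735 and 763 counts in PLX ECT libraries, against 688, 716, 775 and 703 (0.11 ± 0.08, adjusted p = 0.685), and Il34 had 399, 530, 642 and 649 against 540, 539, 496 and 565 (adjusted p = 0.966). Both ligand genes overlapped between the groups.

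Macrophages at the brain's borders, in the perivascular space and meninges, also use the CSF1 receptor. Of the 9 genes of this list 6 passed the filter on low values, and those 6 were lower, with a median of -3.02 (-1.44 with a pseudocount of 8). Mrc1, Cbr2, F13a1, Cd163 and Lyve1 passed it only through the groups on the control diet, so the count over the 6 is no support for a fall of the list. The summed level of the 6 was 44.6, 37.3, 43.6 and 31.5 counts in PLX ECT libraries, against 296, 264, 311 and 303 in nonstressed libraries. Mrc1, the mannose receptor gene CD206, had 0, 2.79, 0 and 0.83 counts in PLX ECT libraries, against 24.4, 26.4, 33.8 and 34.4. The 4 reads behind the PLX ECT values against 126 leave 3.05%, with a counting interval of 0.846% to 8.28%. Cbr2, a carbonyl reductase gene, rested on 2 reads against 54, and F13a1, coagulation factor XIII A, on 5 against 84. Cd163, the haemoglobin scavenger receptor, had 6.22, 2.79, 4.95 and 2.49 counts in PLX ECT libraries, against 17.6, 20.8, 10.3 and 21.4 (adjusted p = 0.00198). Lyve1, a hyaluronan receptor, passed barely (adjusted p = 0.0494) and lost its call in 24 of the 32 alternatives, the choroid plexus and thalamus covariates among them (adjusted p = 0.0815).

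The regulators of the microglial programme were lower for the most part. Of 10 tested transcription factor genes, 7 were lower and 0 higher (median -1.25, or -0.63 with no filter on low values). Spi1 had 34.2, 19.6, 16.8 and 13.3 counts in PLX ECT libraries, against 85.9, 90.7, 128 and 78.0 in nonstressed libraries (-2.19 ± 0.22, adjusted p = 2.37e-07). Irf8, an interferon regulatory factor needed for microglial development, kept 24.0%, Irf5 17.9%, Ikzf1 21.9% and Runx1 25.7% of the nonstressed mean. Runx1 lay between -2.19 and -1.08 over the 32 alternatives. Genes that are low in PLX ECT libraries can pass the filter through other groups alone, which limits the count of 7. Sall1, named above, was also lower. Maf kept 75.6%, a call lost without nonstressed library 22 (adjusted p = 0.0668). Among the uncalled factors were Cebpa (-0.39, adjusted p = 0.272) and Mef2c (0.06, adjusted p = 0.948), which is also made in neurons at high levels.

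Complement genes were called in both directions: of 17 tested, 5 were lower and 1 was higher. The list's median was -0.78, but -0.08 with the choroid plexus and thalamus covariates, -0.38 with a pseudocount of 8, -0.50 without PLX ECT library 14 and -0.51 without nonstressed library 22. The lower ones were the C1q subunits C1qa, C1qb and C1qc and the receptor genes Itgam and C3ar1, which in brain are microglial. C1qa had 317, 130, 110 and 111 counts in PLX ECT libraries, against 813, 756, 821 and 737 in nonstressed libraries (-2.37 ± 0.25, adjusted p = 1.32e-06). Library 12 was the highest of the PLX ECT libraries for all 3 C1q genes. The higher one was C4b, described with the other rises.

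Of 15 immune checkpoint genes 8 were tested (median -0.32, or -0.14 with no filter on low values) and 3 were lower: Cd86, the costimulatory ligand, kept 11.5%, Havcr2 (TIM-3) 17.4% and Lag3 26.0%. Over the 32 alternatives the log2 difference of Cd86 lay between -3.22 and -1.78. A gene that is low in PLX ECT libraries can pass the filter through other groups alone. The count of 3 therefore adds no support for a fall of the list. Lag3 had 44.6, 18.6, 19.8 and 24.1 counts in PLX ECT libraries, against 133, 96.3, 72.3 and 111 in nonstressed libraries (-1.96 ± 0.31, adjusted p = 0.000287). Of 16 inflammatory mediator genes 9 were tested and 3 were lower, namely the cytokine gene Tgfb1 (38.3% kept) and the inflammasome genes Pycard (43.5%) and Nlrp3 (31.8%). Pycard and Nlrp3 lost their calls with only the compared groups (limma adjusted p = 0.0539 and 0.0522). Nlrp3 lay between -1.82 and -0.85 over the 32 alternatives, and the limit given for the checkpoint count holds here too. Of 17 genes of disease-associated microglia only Ctsd and Lyz2 were lower, and the list's median was -0.07. Lyz2 (limma adjusted p = 0.0211) lost its call in 5 of the 32 alternatives. Ctsd, cathepsin D, is made by most brain cells and fell by 0.42 (4526, 4023, 3764 and 3878 counts against 6297, 5234, 5549 and 4657, adjusted p = 0.0015). Gpnmb, of the same list, had 177, 128, 130 and 175 counts in PLX ECT libraries, against 92.8, 103, 96.7 and 93.8, and was not called (0.64 ± 0.18, adjusted p = 0.0895). None of the 15 antigen presentation genes (median -0.15) or of the 23 interferon response genes (median -0.03) was called.

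**Figure D3:**
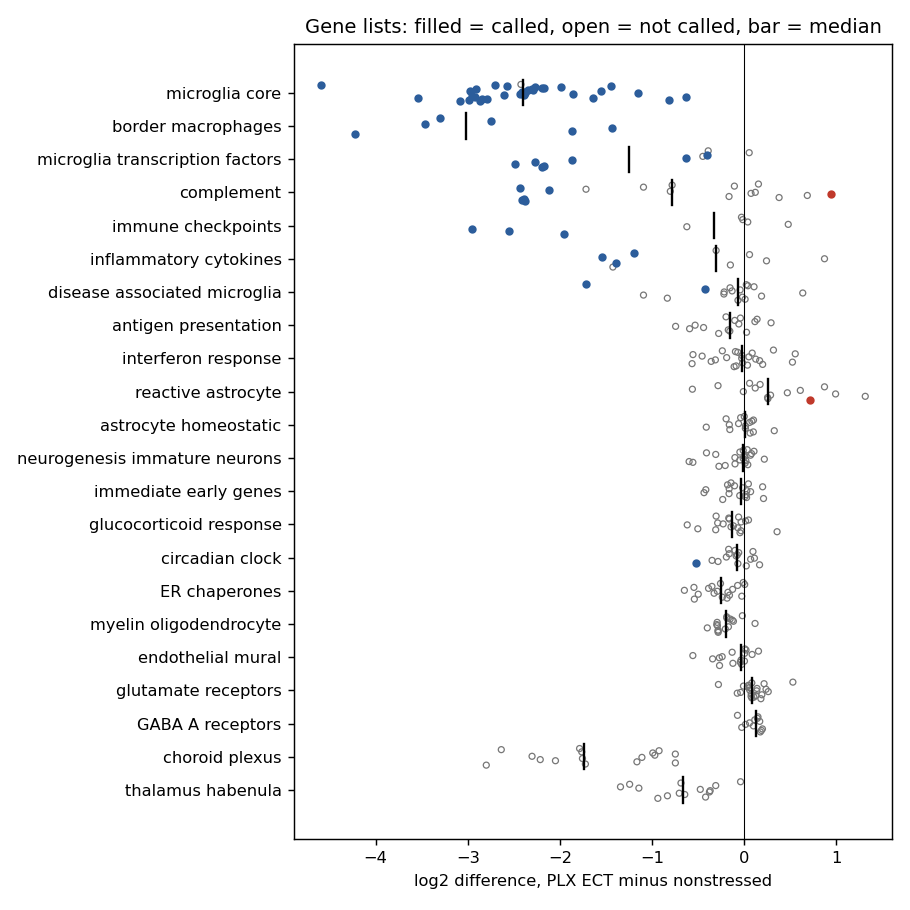
Log2 differences, PLX ECT minus nonstressed (x axis), of the tested members of 22 gene lists, 1 row per list. Filled points were called (blue lower, red higher), open points were not, and the vertical bar is the list's median, which is -2.40 for microglia, -3.02 for border macrophages, 0.26 for reactive astrocytes and -1.74 for choroid plexus, where no gene was called.

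Whether the lower genes also differed between diets without ECT was read in PLX sham minus control-diet sham, whose libraries do not enter the group means of the comparison. They do enter its estimate of spread, which all 24 libraries share, so the calls of the 2 contrasts are not independent. With each contrast fitted to its compared groups only, the 216 shared lower genes given below became 163. There 13 genes were higher (0.0854%) and 270 lower (1.77%). Of the 269 lower genes, 216 were lower there too, 80.3% of them and 80.0% of the 270, and 257 had a negative sign, 95.5% against 49.6% of all tested genes. Their median log2 difference was -1.38 in that contrast and -1.42 in PLX ECT minus nonstressed. All 33 called microglial genes were lower there as well (median -2.33). Of the 18 higher genes 0 were called there and 12 had a positive sign, 66.7% against 50.4%. In control-diet ECT minus control-diet sham, whose libraries also do not enter the group means of the comparison, 1 gene was called (0.00657%), and the median of the 269 lower genes was -0.11. There 209 of the 269 had a negative sign, 77.7% against 50.7% of all tested genes, and 3 of the 18 higher genes a positive one, 16.7% against 49.3%. The summed level of the 34 microglial genes was 12230 to 14480 counts in control-diet ECT and 14320 to 16950 in control-diet sham libraries.

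**Figure D4:**
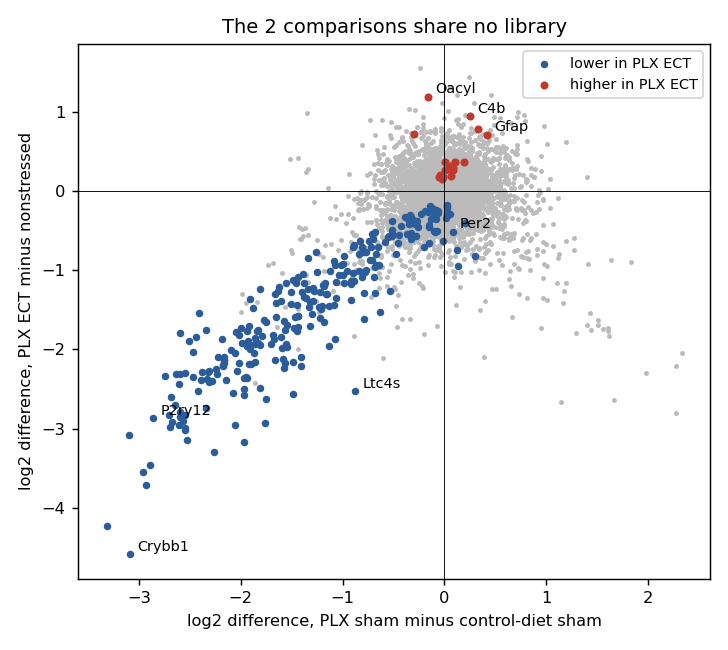
Log2 difference of each tested gene in PLX sham minus control-diet sham (x axis) against PLX ECT minus nonstressed (y axis), 2 contrasts whose group means have no library in common. Genes lower in PLX ECT (blue) run down the diagonal as far as Crybb1, while the 18 higher genes (red), with C4b, Gfap and Oacyl, and some lower genes such as Per2 span little of the x axis, the higher ones from Gm11681 at -0.30 to Gfap at 0.42.

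Among the 18 higher genes, C4b had the second-largest log2 difference after Oacyl. It encodes a complement component C4 and is made in brain largely by astrocytes and oligodendrocytes. C4b had 1973, 2043, 1568 and 1293 counts in PLX ECT libraries, against 957, 786, 846 and 936 in nonstressed libraries. The PLX ECT mean was 1.95-fold the nonstressed mean (0.94 ± 0.17, adjusted p = 0.00133), and the groups did not overlap. The gene lies at chr17:34728139-34743902 (GRCm38.p6), and reads of its near-identical neighbour C4a could be shared with it. The PLX sham mean was 1431, the control-diet ECT mean 1063 and the control-diet sham mean 1208, so that all stressed groups averaged more than the 881 of the nonstressed group. PLX ECT also exceeded control-diet ECT (0.68 ± 0.15, adjusted p = 0.0133), whereas PLX ECT minus PLX sham was 0.26 ± 0.16 (adjusted p = 0.999).

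Gfap, the intermediate filament of astrocytes, was the 1 called gene of the reactive astrocyte list. It had 12360, 10820, 10480 and 9088 counts in PLX ECT libraries, against 7084, 5817, 7601 and 5633 in nonstressed libraries (0.71 ± 0.18, adjusted p = 0.035). Its call was lost in 8 of the 32 alternatives, among them the fit with choroid plexus and thalamus covariates and the one that treats the letter in the titles as random (adjusted p up to 0.126 over the 8). Of the 15 tested genes of that list 12 had positive log2 differences, with a median of 0.26, against 50.7% positive over all tested genes. Cd44, a hyaluronan receptor, had 63.3, 49.4, 43.6 and 42.3 counts in PLX ECT libraries, against 27.3, 32.1, 18.8 and 20.4, without overlap but also without a call (0.99 ± 0.38, adjusted p = 0.292). Vim and Serpina3n each had 0.26 (adjusted p = 0.732 and 0.722). Of 15 genes of resting astrocytes none was called, and their median was 0.01.

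Oacyl had the largest rise among called genes, at low counts: 42.5, 38.2, 27.7 and 28.2 in PLX ECT libraries, against 17.6, 11.3, 11.3 and 17.6 in nonstressed libraries (1.19 ± 0.21, adjusted p = 0.000746). It encodes an acyltransferase-like protein. Its means were 23.6 in PLX sham, 19.9 in control-diet ECT and 26.3 in control-diet sham libraries, and PLX ECT also exceeded control-diet ECT (0.74 ± 0.19, adjusted p = 0.0331). Lgi4, a secreted protein known for Schwann cell myelination, had 679, 680, 647 and 622 counts in PLX ECT libraries, against 537, 498, 590 and 488 (0.32 ± 0.07, adjusted p = 0.00826). Diras2, a small Ras-family GTPase, had 5287, 5679, 5338 and 5988 counts against 4358, 4277, 4883 and 4742 (0.29 ± 0.07, adjusted p = 0.0378). The other higher genes were Stx17, of autophagosome fusion, Xxylt1, a xylosyltransferase of Notch, the zinc finger gene Zc3h6, the protocadherins Pcdhb20 and Pcdhgb6, and the unnamed loci Gm11681 and B230216N24Rik. Slc20a2, a phosphate transporter gene, Zfp763, Dennd1a, Gnl3l, Abhd16a and Rhbdd2 completed the 18 and are named after their values were seen (0.16 to 0.26). The protocadherins lie in clusters of similar genes and Pcdhgb6 shares exons with its neighbours, so their reads are uncertain.

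**Figure D5:**
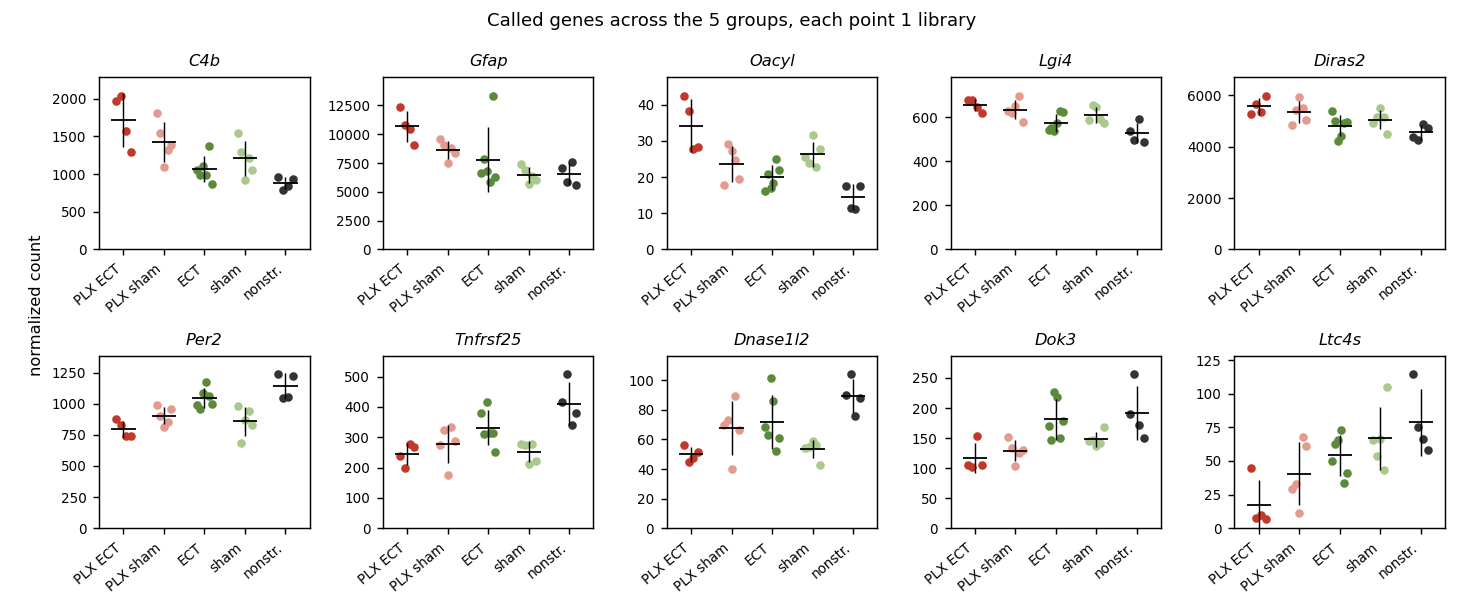
Normalized counts (y axes, linear from 0) of 10 called genes in the 5 groups, ordered PLX ECT, PLX sham, control-diet ECT (ECT), control-diet sham (sham) and nonstressed. Points are libraries, horizontal lines group means and vertical lines 1 SD. C4b, Gfap, Oacyl, Lgi4 and Diras2 (top) are higher in PLX ECT than in nonstressed libraries and Per2, Tnfrsf25, Dnase1l2, Dok3 and Ltc4s (bottom) lower, with the other groups mostly between.

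Some falls were not called between diets in the sham libraries. Of the 269 lower genes, 53 were not called lower in PLX sham minus control-diet sham, and 28 of them had an unadjusted p over 0.05 there. The falls described next are among the 28. Per2, a core repressor of the circadian clock, had 874, 830, 740 and 739 counts in PLX ECT libraries, against 1235, 1043, 1055 and 1226 in nonstressed libraries (-0.52 ± 0.09, adjusted p = 0.00117), and was called in every alternative. Its mean was 905 in PLX sham, 1045 in control-diet ECT and 859 in control-diet sham libraries, and PLX ECT minus control-diet ECT was -0.39 ± 0.09 (adjusted p = 0.00793). The gene lies at chr1:91415977-91459351 (GRCm38.p6). Of the 16 clock genes, Per2 was the 1 called. Cry1 (-0.35, adjusted p = 0.197) and Per3 (-0.28, adjusted p = 0.233) had negative values, and the list's median was -0.08. Ltc4s, leukotriene C4 synthase, had 44.6 counts in PLX ECT library 12 and 7.45, 9.90 and 6.64 in libraries 13 to 15, against 114, 75.5, 66.6 and 58.5 in nonstressed libraries (-2.53 ± 0.49, adjusted p = 0.0034). Its call was lost with only the compared groups (limma adjusted p = 0.0611).

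The other 8 of the 10 largest falls of that kind, among genes averaging 20 or more in the higher group, were less firm. Tnfrsf25, the TNF family receptor DR3, had 240, 197, 276 and 268 counts in PLX ECT libraries, against 417, 507, 339 and 382 in nonstressed libraries (-0.74 ± 0.18, adjusted p = 0.0232). Dnase1l2, a DNase I-like nuclease, had 56.0, 44.7, 47.5 and 51.4 counts against 89.8, 104, 76.0 and 88.2 (-0.83 ± 0.20, adjusted p = 0.0239). Dok3, an adaptor of immune receptor signalling, had 105, 101, 154 and 105 counts against 189, 256, 172 and 150, with library 14 inside the nonstressed range (-0.71 ± 0.16, adjusted p = 0.0138). Kirrel2, Ankrd23, Prr22, Zfp69 and Zfp57, a guardian of imprinted methylation, were also lower. Each of these 8 genes lost its call in 5 to 14 of the alternatives. The choroid plexus and thalamus covariates ended it for Tnfrsf25 (adjusted p = 0.118), Dnase1l2 (0.117), Kirrel2 (0.139), Ankrd23 (0.109), Zfp69 (0.0909) and Zfp57 (0.187).

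Gene groups linked to stress, seizures and antidepressant response showed no calls. Of 18 immediate early genes none was called (median -0.03). Arc had 1288, 1561, 2702 and 3014 counts in PLX ECT libraries, against 3127, 2680, 3019 and 2049, and Fos 55.0, 111, 222 and 240 against 268, 157, 231 and 64.1, and both spread widely within a group. In PLX ECT both were lower in libraries 12 and 13 (title letter G) than in libraries 14 and 15 (letter H). The cause of that split was not tested. Of 22 genes of neurogenesis and immature neurons none was called (median -0.01). Sox11, a transcription factor of immature neurons, had 295, 284, 271 and 303 counts in PLX ECT libraries, against 361, 366, 344 and 322 in nonstressed libraries, without overlap (-0.27 ± 0.10, adjusted p = 0.237), and the migration gene Dcx had 208, 340, 275 and 311 against 248, 310, 219 and 323. Bdnf had 938, 688, 972 and 956 counts against 697, 761, 770 and 739 (0.25 ± 0.15, adjusted p = 0.617). Of 18 glucocorticoid response genes 15 had negative values and none was called (median -0.13). The glucocorticoid receptor gene Nr3c1 and its co-chaperone Fkbp5 differed by -0.04 ± 0.06 and -0.03 ± 0.13 (adjusted p = 0.858 and 0.960).

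Other lists leaned to one side without a called gene. Of 18 chaperones of the endoplasmic reticulum 17 were negative (median -0.25, smallest adjusted p = 0.152), with Creld2 at 223, 188, 284 and 193 counts in PLX ECT libraries, against 345, 337, 361 and 250 in nonstressed libraries. Of 16 myelin genes 15 were negative (median -0.20), and of 22 glutamate receptor genes 18 were positive (median 0.08). Over all tested genes 50.7% were positive. Of 28 cytosolic ribosomal protein genes 27 were negative (median -0.07), and of 17 cytosolic heat shock genes 15 (median -0.05). With the choroid plexus and thalamus covariates the chaperone median was -0.18 and the myelin median -0.10. Cirbp, a cold-inducible RNA-binding protein gene, had 1036, 960, 733 and 880 counts in PLX ECT libraries, against 660, 627, 657 and 715 in nonstressed libraries, without overlap. It was not called (0.43 ± 0.12, adjusted p = 0.0868), though it was under DESeq2 (adjusted p = 0.0215).

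PLX ECT minus PLX sham called 0 genes in limma (0%), edgeR, DESeq2 and limma-voom with the title letter, and 388 genes (2.55%) had an unadjusted p below 0.05. Without PLX ECT library 12 the count was 2. The 34 microglial genes had a median of -0.32 in that contrast, and Crybb1 averaged 2.13 counts in PLX ECT and 5.88 in PLX sham libraries (-1.38, unadjusted p = 0.000424, adjusted p = 0.999). Against control-diet ECT, which carries the stress and the shocks but not the compound, PLX ECT had 67 genes higher (0.44%) and 283 lower (1.86%). All 34 microglial genes were called there, with a median of -2.34. The ECT effects on the 2 diets were also compared directly, as an interaction, in limma alone. There 0 of the 15225 tested genes were called and 1043 of them had an unadjusted p below 0.05. These contrasts share the PLX ECT libraries with the main one, so their values stand beside it and are not independent of it.

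Among genes of that second contrast, Sox11 averaged 288 counts in PLX ECT libraries, below control-diet ECT (-0.42 ± 0.09, adjusted p = 0.00516), although it was not called against nonstressed mice. Tdo2, a tryptophan dioxygenase gene of mature granule cells, had 164, 120, 188 and 149 counts in PLX ECT libraries, against 137, 142, 151 and 134 in nonstressed libraries (0.12 ± 0.16, adjusted p = 0.846), and was above control-diet ECT (0.77, adjusted p = 0.00195). Ntf3, neurotrophin-3, was likewise not called against nonstressed mice (0.13, adjusted p = 0.871) and above control-diet ECT (0.88, adjusted p = 0.00366).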

How the data were processed

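Poly(A)-selected RNA of hippocampus was sequenced. The submitters' processing notes name DESeq2 1.6.3, HTSeq 0.6.1p1, TopHat2 2.0.10 and cutadapt, and the builds mm10 and hg19, without roles. Neither annotation nor strand setting is stated there. The authors deposited 1 table of normalized counts, a signal in which each library's reads are divided by a size factor. In all 24 columns the values were whole multiples of what 1 read is worth (tolerance 0.001), so whole reads were recovered (100% of values), giving 14.97 M to 20.12 M per library. In such libraries 3 reads correspond to 0.149 to 0.2 CPM, a measure computed here from the deposited counts.

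The 15225 genes that reached 10 normalized counts in 4 or more libraries were tested with limma 3.58.1 (R 4.3.3), with trend and robust moderation, on log2(normalized count + 1), as 5 group means over 24 libraries with Benjamini-Hochberg adjustment at 0.05. A pseudocount of 1 understates the change of low genes. The planned edgeR test applied only if the files had held raw counts. Alternatives were edgeR 4.0.16 and DESeq2 1.42.0 on recovered reads, other pseudocounts, no filter, fewer groups, the letter in the titles as a random term (limma-voom), choroid plexus and thalamus list means as covariates, and leaving out each library.

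Named genes were the 12 largest rises and falls among called genes whose higher group averaged 20 or more, the 10 largest of each with an unadjusted p over 0.05 between diets in sham libraries, and members of the lists. The lists and genes were chosen with earlier results of these data known. Coordinates and promoters come from GRCm38.p6 tables, matched by symbol. Of 282 genes looked up, 280 matched and 101 overlapped a gene on the other strand. Library numbers come from the titles and are unique, so they pair no samples. Some items are not reported here.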

Additional observations from a re-analysis of the deposited data

Results flagged for a closer look

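Among 108 groups of 4 libraries (54 genes in PLX ECT and nonstressed mice), 9 had 1 library far from the other 3 by Dixon's ratio, the gap to the nearest library over the group's range. Chance flags about 1 in 20 groups. PLX ECT library 12 stood apart for 3 genes. Ltc4s had 44.6 normalized counts there and 6.64 to 9.90 in the other 3 (ratio 0.914). Ttr, of choroid plexus, had 47340 there and 1486 to 2202 in the others (0.984). Tcf7l2, a thalamic marker, had 598 there and 92.9 to 128 in the others (0.931). The part of choroid plexus and thalamic RNA in the Ltc4s values was not tested.

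The next 4 flags fell in the remaining PLX ECT libraries. Dok3 had 154 counts in library 14 and 101 to 105 in the others (0.926). Pcdhgb6 had 274 in library 14 and 227 to 232 in the others (0.896). Stx17 had 523 in library 15 and 481 to 488 in the others (0.835). Bdnf had 688 in library 13 and 938 to 972 in the others (0.881). In nonstressed library 24, Pcdhb20 had 132 counts against 123 to 124 in the others (0.929), and Npy had 1281 against 908 to 967 (0.842).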

How the results depend on the processing

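The number of higher genes, 18, moved more with the settings than that of lower genes, 269. Higher genes numbered 32 under DESeq2, 6 with the letter in the titles as a random term, 8 with the choroid plexus and thalamus covariates, 12 with only the compared groups and 9 to 51 when 1 library was left out (51 without nonstressed library 25, 9 without nonstressed library 23 or 24). Lower genes numbered 194 to 304 over the 8 other settings and 203 to 283 when 1 library was left out. For PLX ECT against control-diet ECT the 350 calls became 229 with only the compared groups and 227 to 387 when 1 library was left out (227 without PLX ECT library 15). PLX ECT against PLX sham gave 0 to 2 calls when 1 library was left out. The 216 lower genes shared with the sham libraries became 163 to 226 under the 8 settings and 181 to 219 without 1 library. The cause of these moves was not tested. Of 112 named called genes 76 were called in each of the 32 alternatives and 36 lost the call in at least 1. Signs turned only for uncalled genes near 0. With the covariates Il34 was -0.07, Dcx -0.04, Mef2c -0.02 and Cd200 0. Leaving out 1 library gave -0.66 to 0.19 for Fos, -0.06 to 0.18 for Dcx and for Il34, -0.02 to 0.12 for Cd200, -0.1 to 0.08 for Fkbp5, -0.08 to 0.02 for Cd47, 0 to 0.14 for Mef2c and -0.09 to 0.01 for Nr3c1. No paired analysis was possible because each library number occurs once. Genes under about 10 normalized counts in PLX ECT libraries rest on few reads, so depth limits how far their fall can be measured.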

Other observations

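Single genes outside the lists, picked after their values were seen because they were called lower in PLX ECT libraries, are given here as values and say nothing of a pathway as a whole. Some act in eicosanoid synthesis or breakdown. Hpgds, the haematopoietic prostaglandin D synthase, had 28.0, 31.7, 12.9 and 24.1 normalized counts in PLX ECT libraries, against 145, 109, 117 and 104 in nonstressed libraries (log2 difference -2.31 ± 0.22, limma adjusted p = 1.16e-07). Alox5ap, which presents arachidonate to 5-lipoxygenase, kept 27.2% of the nonstressed mean, Tbxas1, the thromboxane synthase, 29.4%, and Ptgs1, cyclooxygenase 1, 49.6%. Hpgd, which degrades prostaglandins, had 33.2, 22.4, 28.7 and 31.5 counts in PLX ECT libraries, against 107, 88.8, 129 and 123 (-1.91 ± 0.15, adjusted p = 2.46e-09). The groups did not overlap for Hpgds or Hpgd.

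Others, picked in the same way, encode receptors or signalling enzymes. Fcgr3, an activating Fc receptor gene, had 29.0, 25.2, 28.7 and 32.4 counts in PLX ECT libraries, against 248, 217, 288 and 157 in nonstressed libraries (-2.91 ± 0.17, adjusted p = 4.64e-11), and Cd14, the endotoxin co-receptor, kept 18.6%. The kinase genes Lyn and Syk kept 40.9% and 43.8%, and the phosphatase gene Inpp5d 29.6%. Tgfbr1, a receptor for TGF-beta that microglia depend on, had 245, 174, 196 and 166 counts in PLX ECT libraries, against 424, 372, 433 and 394 (-1.06 ± 0.09, adjusted p = 9.45e-09). Its partner Tgfbr2 kept 67.0% (-0.58 ± 0.15, adjusted p = 0.0394), a call lost in 10 of the 32 alternatives. Hpgds, Hpgd, Fcgr3 and Tgfbr1 were also lower in PLX sham than in control-diet sham libraries, with log2 differences of -2.60, -1.83, -2.57 and -0.99.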
